A study of Mus musculus with 40 samples.

Results

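Late 2-cell embryos (L2C) of mouse mothers that lacked TDP-43 in the oocyte were compared with L2C of control mothers across all genes. Members were the genes with a mean FPKM (fragments relative to transcript length and to all mapped fragments) of at least 1 over the 4 L2C RNA-seq libraries. This left 7760 of the 24056 genes used, and 4 of the 40 samples of the series. Ppap2a (mean 1.00 FPKM) was just inside this limit and Hist1h2bp (mean 0.999656 FPKM) just outside it. The oKO group held 2 libraries of L2C from Tdp43 flox/flox;Zp3-Cre females, and the Ctrl group 2 libraries of L2C from Tdp43 flox/flox females, which the labels call WT. Zp3-Cre is driven by a promoter of growing oocytes, and the loxP sites flank exon 3 of the TDP-43 gene. The deletion is therefore maternal, and embryos keep a paternal allele, since the females were mated with normal fertile ICR males. Females of both groups were 7 to 8 weeks old and on a hybrid C57BL/6J and ICR background, and embryos were taken 48 h after HCG. Each library was made with Smart-seq2 from a pool of 20 embryos. In pooled embryos, fewer cells of a kind and less RNA per cell cannot be told apart. Likewise, embryos that had not reached the developmental point of their controls at collection and a change in embryos of the same point cannot be told apart.

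TDP-43 is a nuclear protein that binds RNA and DNA and acts in transcription and splicing. The mouse embryo begins its development on RNA and protein stored in the oocyte. Zygotic genome activation (ZGA) then starts with a minor wave in the 1-cell and early 2-cell embryo, which is brief for genes such as the Zscan4 family, and goes on with a major wave in the late 2-cell embryo, when genes for ribosomes, RNA processing and metabolism are turned on. Over the same period most maternal mRNAs are removed.

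The deposited values of the groups were not on 1 scale. The FPKM of all genes summed to 124265 and 126713 in oKO L2C, against 209102 and 215926 in Ctrl L2C, a ratio of 0.590. FPKM is relative to all mapped fragments, so a column total falls when fewer of them lie in listed genes. Multiplying each FPKM by the length of the longest annotated transcript gave an estimate of this share, 20.6% and 21.4% in oKO L2C against 37.8% and 39.1% in Ctrl L2C. It was 48.5% to 58.3% in the 4 early 2-cell (E2C) libraries. Genes above 1 FPKM numbered 6827 and 6859 in oKO L2C, against 8005 and 8026 in Ctrl L2C. A median-ratio scaling over 3573 genes above 1 FPKM in all 24 RNA-seq libraries gave size factors of 0.438 and 0.464 in oKO L2C, against 0.850 and 0.856 in Ctrl L2C. After division by these factors the totals were 283487 and 273370 in oKO L2C, against 246146 and 252133 in Ctrl L2C. The counts of called genes and the medians below are therefore given on the deposited and on the scaled values, and which of the 2 scales is nearer to RNA molecules per embryo was not tested. The replicates correlated on log2(FPKM + 1) with a Pearson r of 0.962 in oKO L2C and 0.980 in Ctrl L2C across genes, which are not independent replicates. Few markers of other cells that might be carried along were measured. Of 15 granulosa and cumulus cell genes 1 reached the limit of 1 FPKM, and the 15 together summed to 3.19 and 2.94 FPKM in oKO L2C against 7.34 and 6.90 FPKM in Ctrl L2C. The same limit was reached by 2 of 13 male germ cell genes (7.73 and 8.10 FPKM summed in oKO L2C, 28.6 and 20.5 FPKM in Ctrl L2C), 3 of 17 blood and immune genes (46.1 and 47.4 FPKM in oKO L2C, 38.1 and 29.3 FPKM in Ctrl L2C) and 1 of 12 oviduct genes (4.37 and 3.32 FPKM in oKO L2C, 3.46 and 2.31 FPKM in Ctrl L2C). Genes listed at 0 in all 4 libraries numbered 2, 3, 3 and 1 in these lists, and the part of these cells in the results was not tested.

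The TDP-43 gene, Tardbp, lies on the minus strand of chromosome 4 (147986491 to 148001128, mm9) with 6 exons. Tardbp measured 1.95 and 2.01 FPKM in oKO L2C, against 6.14 and 7.52 FPKM in Ctrl L2C. Both oKO libraries were below both Ctrl libraries, and the log2 fold change of oKO over Ctrl was -1.39 ± 0.21 (SE; limma adjusted p = 1.71e-05). After scaling it was -0.73 (limma adjusted p = 0.0212), which is less than 2-fold and so not called. The value covers the whole gene, including exons outside the deletion and any transcript of the paternal allele.

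Far more genes were lower than higher in oKO L2C on the deposited values. A gene was called when it differed at least 2-fold with a limma p, adjusted by Benjamini-Hochberg over the 7760 genes, of at most 0.05. Of these genes 524 (6.75%) were called higher and 3151 (40.6%) lower, and the median log2 fold change was -0.79. After scaling, 1277 (16.5%) were called higher and 1283 (16.5%) lower, and the median was -0.11. The scaling thus moved the median gene and with it the split of the calls, from mostly lower to even. No gene was called in opposite directions. All 524 genes called higher on the deposited values were also higher after scaling, and all 1283 genes called lower after scaling were also lower before it. These 524 and 1283 genes are called higher and lower under both scalings below. The oKO and Ctrl libraries did not overlap in 521 of the 524 and in all of the 1283, where 84.2% of all genes tested did not overlap. As deposited, the median ratio of mean FPKM was 4.21-fold higher in oKO for the 524 genes and 5.80-fold lower in oKO for the 1283. The mean size factor of Ctrl L2C was 1.89 times that of oKO L2C. Scaling thus raises the first ratio and lowers the second, and their order depends on the scale.

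The checks of these sets that follow were run on the deposited values only. With each of the 4 libraries left out in turn, 296 of the 524 higher genes and 1198 of the 1283 lower genes stayed called in every fit, in part because a gene could then fall under the expression limit. With a pseudocount of 5 in place of 1, 225 of the 524 and 859 of the 1283 stayed called.

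**Figure D1:**
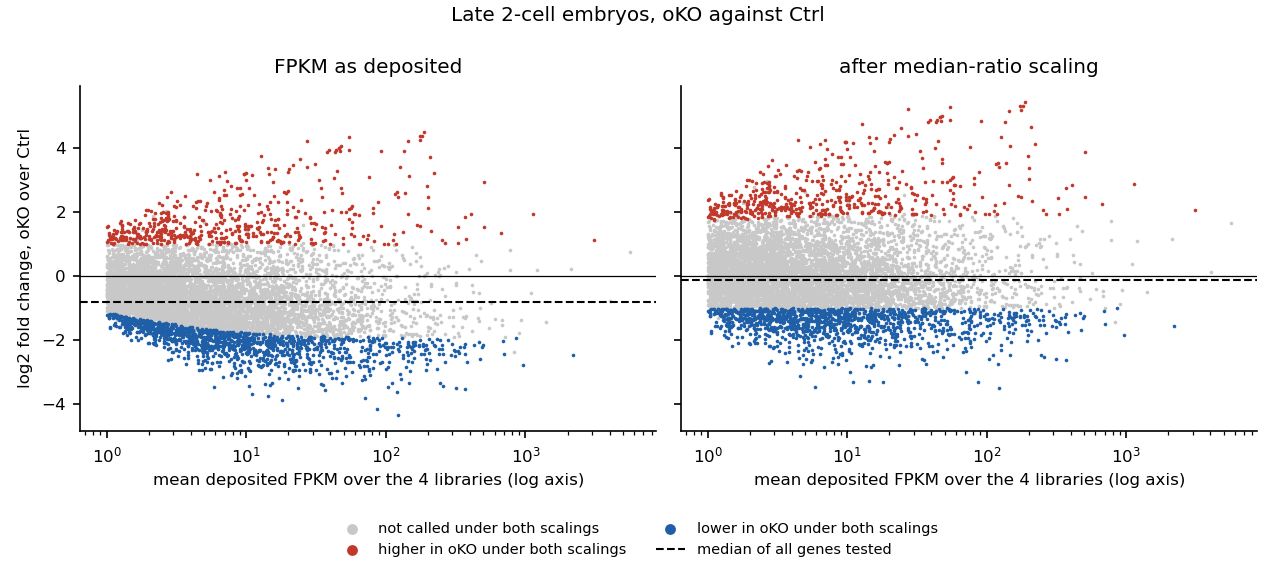
Log2 fold change of oKO over Ctrl L2C against mean expression, 1 point per gene, for the values as deposited and after median-ratio scaling. Of 7760 genes, 524 were higher and 3151 lower as deposited, and 1277 were higher and 1283 lower after scaling, where the median (dashed) moves from -0.79 to -0.11. Red and blue points are called under both scalings.

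Genes of the burst of the early 2-cell embryo were higher in oKO L2C. Of 36 genes listed for this burst 32 were tested. Of these 27 (84.4%) were higher under both scalings, where 6.75% of all genes tested were, and none was lower. The median log2 fold change was 2.53 as deposited and 3.48 after scaling. Zscan4c, a zinc finger gene of the early 2-cell embryo (chromosome 7, 11591071 to 11595896, mm9), measured 54.1 and 46.7 FPKM in oKO L2C, against 3.34 and 4.25 FPKM in Ctrl L2C. The 2 groups were far apart, and the log2 fold change was 3.43 ± 0.35 as deposited and 4.38 after scaling (limma adjusted p = 1.89e-07 and 3.49e-08). Zscan4f measured 85.6 and 78.6 FPKM in oKO L2C, against 5.73 and 9.68 FPKM in Ctrl L2C. Zscan4a measured 41.9 and 31.9 FPKM in oKO L2C, against 2.73 and 3.23 FPKM in Ctrl L2C. The copies of Zscan4 are near-identical, so that reads may be split among them. They are not separate evidence. Zfp352, a zinc finger gene of the 2-cell embryo (chromosome 4, 89885511 to 89892393, mm9), measured 90.3 and 76.3 FPKM in oKO L2C, against 15.7 and 10.4 FPKM in Ctrl L2C. Its log2 fold change was 2.61 ± 0.30, and 3.53 after scaling.

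Most of the 12 largest increases fell in clusters of predicted genes with much the same values, and 2 of the 12, Gm428 and Gm6763, are among the genes listed for the burst. Gm428 measured 106 and 101 FPKM in oKO L2C, against 5.00 and 6.72 FPKM in Ctrl L2C, a ratio of 17.6. Gm11236, LOC101055863, LOC100862015 and Gm11237 had nearly the same values as each other in each library, between 80.6 and 102 FPKM in oKO L2C and between 3.63 and 5.56 FPKM in Ctrl L2C, so these cannot be read as separate genes. Another such cluster, of Gm21293, Gm21304, Gm21312, Gm6763 and Gm8764, differed 16.9-fold to 21.2-fold between mean oKO and mean Ctrl. Gm21293 measured 391.6 and 323 FPKM in oKO L2C, against 25.7 and 8.07 FPKM in Ctrl L2C. Its Ctrl libraries were far apart, but both were below both oKO libraries. Usp17la, one of a family of ubiquitin proteases, measured 6.04 and 5.99 FPKM in oKO L2C, against 0.159 and 0.611 FPKM in Ctrl L2C. Usp17lc measured 5.02 and 3.77 FPKM in oKO L2C, against 0.729 and 0.500 FPKM in Ctrl L2C. The defensin gene Defb13 measured 6.52 and 4.12 FPKM in oKO L2C and was listed at 0 and 0.269 FPKM in Ctrl L2C. At E2C Defb13 was near the floor, at 0 and 0.784 FPKM in Ctrl E2C and 0 and 0 FPKM in oKO E2C. Not every gene of the burst was called higher. As deposited, B020004C17Rik measured 308 and 270 FPKM in oKO L2C, against 321 and 382 FPKM in Ctrl L2C. Ubtfl1 measured 15.3 and 16.5 FPKM in oKO L2C, against 20.1 and 21.0 FPKM in Ctrl L2C. Division by the size factors puts both oKO libraries above both Ctrl libraries for each gene, so their direction depended on the scale. These 2 genes, like other members singled out below for not being called, were picked after their values were seen.

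The Obox genes encode homeodomain proteins of the oocyte and 2-cell embryo. Obox1, Obox2, Obox3 and Obox5 were higher under both scalings. Obox5 measured 283 and 399 FPKM in oKO L2C, against 68.2 and 52.5 FPKM in Ctrl L2C (log2 fold change 2.47 ± 0.25, limma adjusted p = 1.89e-07). Obox6 went the other way on the deposited values, with 127 and 113 FPKM in oKO L2C against 301 and 385 FPKM in Ctrl L2C. Its log2 fold change was -1.501 ± 0.29, and -0.59 after scaling, where it was not called (limma adjusted p = 0.129).

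Some families of genes expressed in the oocyte were also higher, while maternal genes as a class, described below, were split on the deposited values. Among all genes tested 6.75% were higher under both scalings. In the family lists of Tcl1, Rfpl4 and Fbxw genes, 12 of 22 tested (54.5%) were higher under both scalings and none was lower. Their median log2 fold change was 1.02 as deposited and 1.93 after scaling. Tcl1, a cofactor of the kinase Akt (chromosome 12, 106454967 to 106460947, mm9), measured 879 and 903 FPKM in oKO L2C, against 114 and 116 FPKM in Ctrl L2C. Replicates lay close together, and the log2 fold change was 2.95 ± 0.27 (limma adjusted p = 7.21e-08). Rfpl4, a ret finger protein-like gene of the oocyte, measured 130 and 271 FPKM in oKO L2C, against 33.3 and 28.4 FPKM in Ctrl L2C. Of 8 oocyte Nlrp genes tested, 4 (50%) were higher under both (median log2 fold change 0.93, and 1.80 after scaling). Of 21 genes for the zona pellucida and oocyte growth, 9 (42.9%) were higher under both (median 0.80, and 1.72 after scaling).

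Some of these were among the most abundant transcripts. Oosp1, an oocyte-secreted protein gene, measured 1712 and 1901 FPKM in oKO L2C, against 558 and 390 FPKM in Ctrl L2C. Omt2a measured 3876 and 4652 FPKM in oKO L2C, against 2276 and 1636 FPKM in Ctrl L2C, and was just over 2-fold. Without Ctrl replicate 2 the log2 fold change of Omt2a was 0.90, under that limit. Btg4, an adaptor of the deadenylase complex that removes maternal mRNA, measured 584 and 699 FPKM in oKO L2C, against 193 and 143 FPKM in Ctrl L2C. Gdf9, an oocyte growth factor, measured 39.0 and 51.8 FPKM in oKO L2C, against 11.4 and 11.99 FPKM in Ctrl L2C. Not all oocyte genes were called higher. Zp3, which encodes a zona pellucida protein, measured 15.8 and 15.5 FPKM in oKO L2C, against 18.6 and 22.7 FPKM in Ctrl L2C. Dppa3, a maternal factor that guards DNA methylation, measured 2766 and 3108 FPKM in oKO L2C, against 4674 and 5487 FPKM in Ctrl L2C. Its log2 fold change of -0.79 as deposited was not called and was near the median of all genes tested. Division by the size factors puts both oKO libraries of Zp3 above both Ctrl libraries, and the groups of Dppa3 then overlap. The direction of these genes thus depended on the scale.

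Of the subcortical maternal complex, which assembles under the oocyte membrane, Ooep alone of 7 genes was called on the deposited values. Ooep measured 98.99 and 91.5 FPKM in oKO L2C, against 23.95 and 24.2 FPKM in Ctrl L2C. After scaling all 7 were called higher, where 16.5% of all genes tested were. Here the scaling decides the count, as it does for the 578 of 1645 maternal genes described below. Of 37 genes for storage and decay of maternal mRNA, 2 (5.41%) were higher and 2 (5.41%) lower under both scalings. Among all genes tested 6.75% were higher and 16.5% lower. The median log2 fold change of the 37 was -0.36 as deposited and 0.30 after scaling. The m6A reader Ythdf2 was lower, with 39.9 and 30.7 FPKM in oKO L2C against 130 and 143 FPKM in Ctrl L2C. Zar1, an RNA-binding maternal factor, was higher, with 5.34 and 12.5 FPKM in oKO L2C against 1.57 and 0.896 FPKM in Ctrl L2C.

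Of 31 histone genes tested, 13 (41.9%) were higher under both scalings and none was lower under both. Among all genes tested 6.75% were higher and 16.5% lower. H1foo, the oocyte linker histone, measured 38.3 and 117 FPKM in oKO L2C, against 9.53 and 5.30 FPKM in Ctrl L2C. Hist1h4d, a gene for histone H4, measured 67.1 and 97.1 FPKM in oKO L2C, against 6.30 and 3.28 FPKM in Ctrl L2C. The replacement histone gene H3f3a was lower on the deposited values alone, with 152 and 139 FPKM in oKO L2C against 325 and 356 FPKM in Ctrl L2C. Replication-dependent histone mRNAs carry no poly(A) tail, and the histone genes share sequence, so their values are uncertain.

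**Figure D2:**
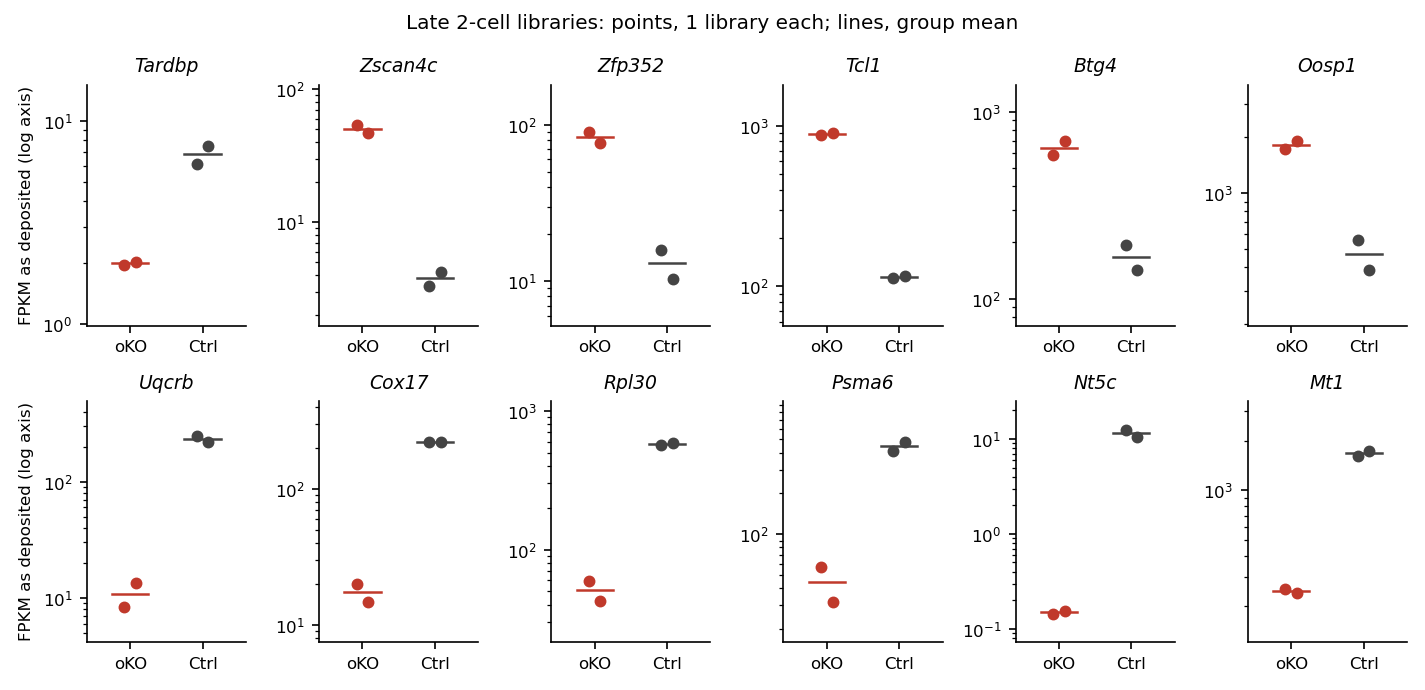
FPKM as deposited of single L2C libraries (points, log axis, a scale per gene) and group means (lines) for 12 genes, oKO left of Ctrl. For Zscan4c the oKO libraries sit at 54.1 and 46.7 FPKM, above the Ctrl libraries at 3.34 and 4.25 FPKM, and for Uqcrb they sit at 8.29 and 13.5 FPKM, below the Ctrl libraries at 246 and 220 FPKM.

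Genes for energy metabolism and protein synthesis were often lower. Members of the respiratory and ribosomal protein lists made up 5 of the 12 largest decreases. Among the others was Trappc2l, which encodes a subunit of a vesicle tethering complex and had the second of these decreases, with 10.9 and 6.45 FPKM in oKO L2C against 171 and 157 FPKM in Ctrl L2C. The first was Uqcrb. This gene for a subunit of respiratory complex III (chromosome 13, 67001553 to 67006314, mm9) measured 8.29 and 13.5 FPKM in oKO L2C, against 246 and 220 FPKM in Ctrl L2C. This was a 21.4-fold lower mean, or 11.4-fold lower after scaling, and the log2 fold change was -4.33 ± 0.32 (limma adjusted p = 1.05e-08). Cox17, a copper chaperone for cytochrome oxidase, measured 20.1 and 14.9 FPKM in oKO L2C, against 221 and 222 FPKM in Ctrl L2C. Ndufa12, a complex I subunit, measured 1.66 and 1.24 FPKM in oKO L2C, against 34.3 and 34.6 FPKM in Ctrl L2C. In Uqcrb, Cox17 and Ndufa12 the Ctrl libraries agreed closely and the oKO libraries were more than 10-fold below. Among all genes tested 16.5% were lower and 6.75% higher under both scalings. Of 46 genes of complexes II to V, 21 (45.7%) were lower and 2 (4.35%) higher under both scalings (median log2 fold change -1.73, and -0.90 after scaling). Of 42 genes listed for complex I, 16 (38.1%) were lower and 3 (7.14%) higher under both (median -1.39, and -0.59 after scaling). The 3 were Ndufa1, Ndufa4 and Ndufaf2. Ndufa4, whose protein is now assigned to complex IV, measured 661 and 838 FPKM in oKO L2C, against 244 and 263 FPKM in Ctrl L2C. The respiratory genes therefore did not move as 1 group.

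Of the 86 genes for proteins of the cytoplasmic ribosome, 82 were lower on the deposited values and 56 (65.1%) under both scalings, and none was higher. Among all genes tested 16.5% were lower under both. The median log2 fold change of these 86 was -2.05, and -1.16 after scaling. Rpl30, a protein of the large subunit (chromosome 15, 34370260 to 34373395, mm9), measured 59.6 and 42.7 FPKM in oKO L2C, against 569 and 590 FPKM in Ctrl L2C. Rpl41, the most abundant of the genes lower under both scalings, measured 768 and 587 FPKM in oKO L2C, against 3505 and 3948 FPKM in Ctrl L2C. Ribosomal protein genes have many pseudogene copies, such as Gm12191 (70.1 and 48.6 FPKM in oKO L2C, 666 and 683 FPKM in Ctrl L2C), which may share their reads. Of 75 genes for mitochondrial ribosomal proteins 44 (58.7%) were lower and 1 (1.33%) higher under both scalings (median -1.87, and -1.22 after scaling). Mrpl20 measured 9.46 and 7.73 FPKM in oKO L2C, against 132 and 135 FPKM in Ctrl L2C.

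The genes that build and serve the ribosome were lower as well. Among all genes tested 40.6% were lower as deposited and 16.5% under both scalings. Of 112 genes for rRNA processing and ribosome assembly, 102 (91.1%) were lower as deposited and 51 (45.5%) under both scalings. None of the 112 was higher under both (median -1.62, and -0.95 after scaling). Rpf2, an assembly factor of the large subunit, measured 28.0 and 13.0 FPKM in oKO L2C, against 194 and 208 FPKM in Ctrl L2C. Exosc5, a subunit of the RNA exosome, measured 0.679 and 0.473 FPKM in oKO L2C, against 13.6 and 12.4 FPKM in Ctrl L2C. Of 59 translation factors 22 (37.3%), and of 27 aminoacyl-tRNA synthetases 11 (40.7%), were lower and none was higher under both scalings. Eif3m, of the initiation factor eIF3, measured 17.5 and 10.5 FPKM in oKO L2C, against 109 and 142 FPKM in Ctrl L2C.

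Of 44 proteasome genes 35 (79.5%) were lower as deposited and 18 (40.9%) under both scalings (median -1.61, and -0.84 after scaling), and none was higher. Among all genes tested 40.6% were lower as deposited and 16.5% under both. Psmb4, a subunit of the proteasome core (chromosome 3, 94688015 to 94690883, mm9), measured 7.61 and 3.47 FPKM in oKO L2C, against 58.6 and 71.4 FPKM in Ctrl L2C. Psma6 of the same core measured 57.0 and 31.9 FPKM in oKO L2C, against 409 and 480 FPKM in Ctrl L2C. Pomp, which helps to assemble the core, measured 19.6 and 13.7 FPKM in oKO L2C, against 184 and 198 FPKM in Ctrl L2C. Lysosomal genes followed with 8 of 19 (42.1%) lower under both scalings, among them Ctsc, a protease gene (13.6 and 8.17 FPKM in oKO L2C, 75.7 and 74.4 FPKM in Ctrl L2C).

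**Figure D3:**
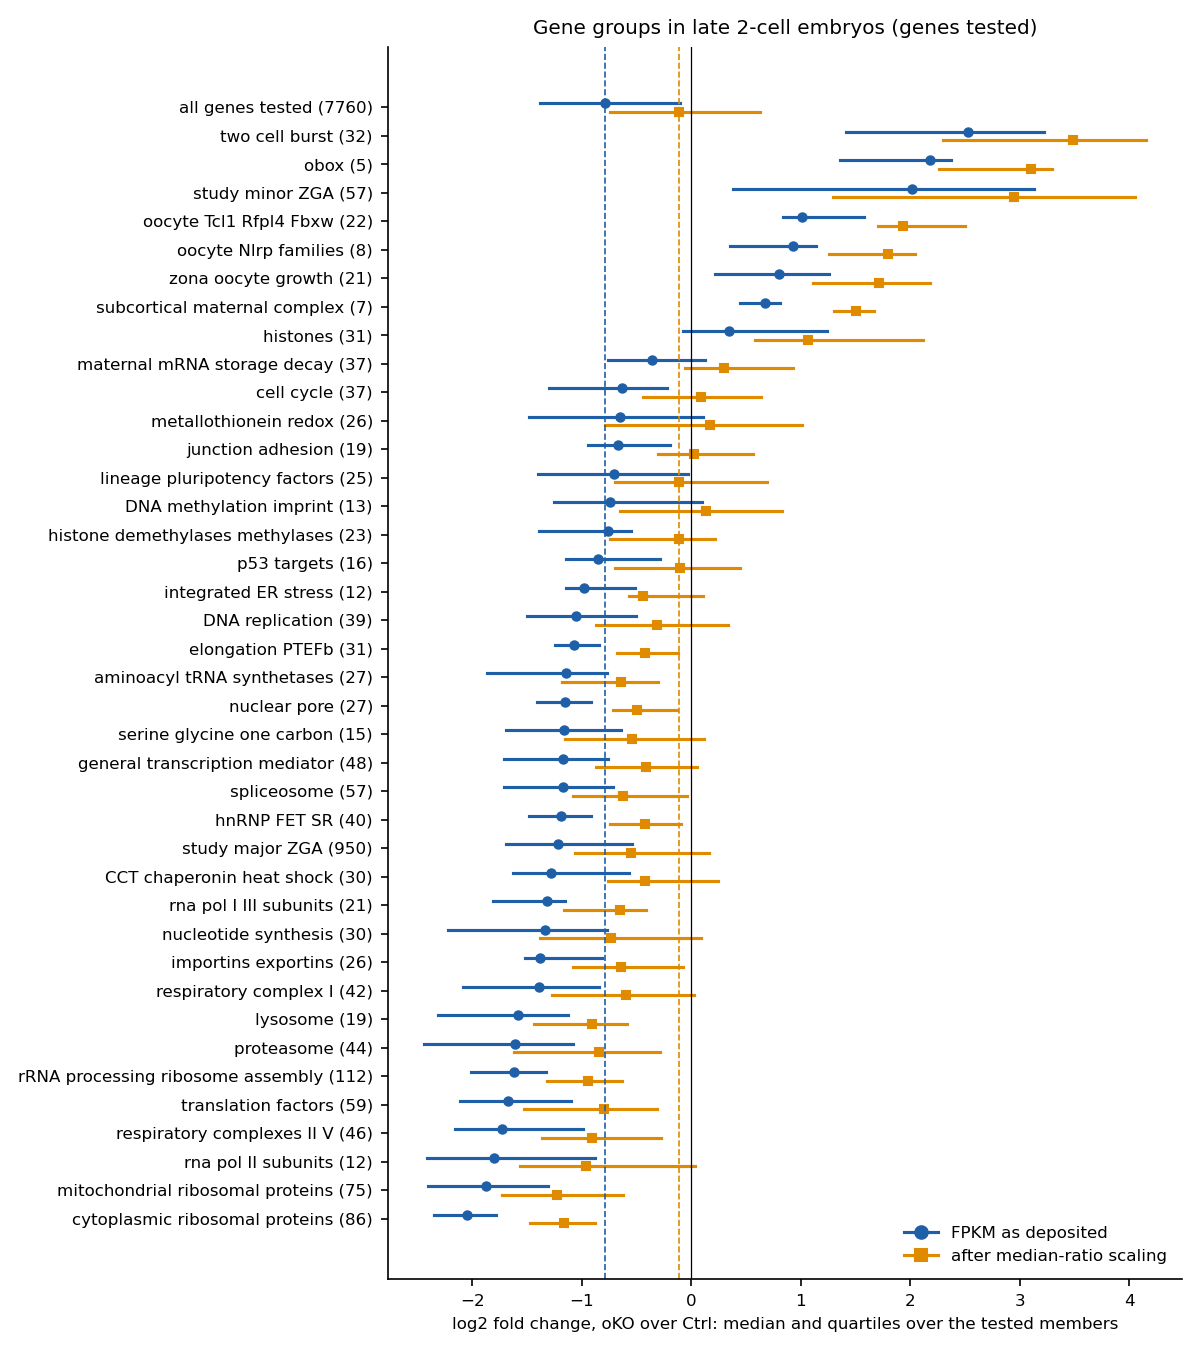
Median (symbols) and quartiles (bars) of the log2 fold change of oKO over Ctrl L2C over the tested members of each gene list (number in brackets), as deposited (blue) and after median-ratio scaling (orange). Dashed lines mark the medians of all genes tested, -0.79 and -0.11. The 2-cell and oocyte lists lie to the right of all genes and the ribosomal, mitochondrial and proteasome lists to the left on both scales.

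The transcription machinery was mixed. RNA polymerase II is the enzyme of ZGA, and the study asked whether TDP-43 acts through it. Of 12 of its subunit genes tested, 6 were lower under both scalings and none was higher under both (median log2 fold change -1.80, and -0.96 after scaling). Polr2h, a subunit shared by the 3 polymerases (chromosome 16, 20717738 to 20722340, mm9), measured 37.0 and 18.6 FPKM in oKO L2C, against 223 and 224 FPKM in Ctrl L2C (log2 fold change -3.04 ± 0.27, limma adjusted p = 4.57e-08). Polr2k measured 128 and 90.8 FPKM in oKO L2C, against 586 and 514 FPKM in Ctrl L2C. Polr2a, the gene for the largest subunit, was under the limit of 1 FPKM, with 0.553 and 0.349 FPKM in oKO L2C and 1.16 and 0.994 FPKM in Ctrl L2C, and was not tested. Ccnt1 and Cdk9 encode the cyclin and the kinase of P-TEFb, which releases paused polymerase. Ccnt1 was lower as deposited but not called after scaling. Ccnt1 measured 5.40 and 5.38 FPKM in oKO L2C, against 14.6 and 13.7 FPKM in Ctrl L2C, a log2 fold change of -1.24 ± 0.29, and -0.44 after scaling (limma adjusted p = 0.266). Cdk9 measured 2.86 and 3.36 FPKM in oKO L2C, against 6.38 and 6.48 FPKM in Ctrl L2C, a log2 fold change of -0.86 that was not called on either scale. Of 31 elongation genes 5 (16.1%) were lower under both scalings, where 16.5% of all genes tested were, among them Supt4a and Supt5, which together form the elongation factor DSIF. Supt4a measured 123 and 85.4 FPKM in oKO L2C, against 469 and 546 FPKM in Ctrl L2C. Of 21 genes for subunits and factors of RNA polymerases I and III, 7 (33.3%) were lower and none was higher under both scalings.

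TDP-43 belongs with the hnRNP proteins, which package pre-mRNA. Of 40 hnRNP, FET and SR protein genes, 26 were lower as deposited but 3 under both scalings (7.50%, where 16.5% of all genes were), namely Tra2a, Srsf11 and Hnrnpm. Hnrnpm measured 3.77 and 2.92 FPKM in oKO L2C, against 14.7 and 14.6 FPKM in Ctrl L2C. Of 57 spliceosome genes 17 were lower and none higher under both scalings, among them Snrpd2, a core snRNP protein gene, with 30.5 and 20.2 FPKM in oKO L2C against 149 and 178 FPKM in Ctrl L2C.

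Other groups lay on both sides of the shares of all genes tested, of which 16.5% were lower and 6.75% higher under both scalings. Of 30 nucleotide synthesis genes 12 (40.0%) were lower and 1 was higher. The lower ones included Nme1, a nucleoside diphosphate kinase gene (11.3 and 5.20 FPKM in oKO L2C, 68.4 and 70.5 FPKM in Ctrl L2C). Of 26 genes for nuclear import and export 8 (30.8%) were lower and none was higher, among the lower Ran, the GTPase that drives this transport (19.9 and 28.9 FPKM in oKO L2C, 95.4 and 101 FPKM in Ctrl L2C). Of 39 DNA replication genes, 7 (17.9%) were lower and 1 higher under both scalings, among the lower Rpa2, which coats single-stranded DNA (3.14 and 2.21 FPKM in oKO L2C, 30.5 and 32.9 FPKM in Ctrl L2C). Of 37 cell cycle genes 1 (2.70%) was lower and 3 were higher under both scalings, among the higher Mos, the kinase of meiotic arrest (4.30 and 5.02 FPKM in oKO L2C, 1.24 and 0.312 FPKM in Ctrl L2C). Of 25 lineage and pluripotency genes 5 were lower and 1 higher under both scalings. Dppa2 and Dppa4 are partners that promote 2-cell genes in mouse stem cells. Dppa2 measured 34.9 and 28.1 FPKM in oKO L2C, against 121 and 143 FPKM in Ctrl L2C, and Dppa4 measured 40.8 and 29.3 FPKM in oKO L2C, against 158 and 181 FPKM in Ctrl L2C. Of 16 targets of p53 and 23 histone methylase and demethylase genes, 2 and 1 were lower and none was higher under both scalings. Of 12 genes of the ER stress response, none was lower and Ddit3 alone was higher under both scalings (11.2 and 15.4 FPKM in oKO L2C, 2.83 and 6.32 FPKM in Ctrl L2C). Without Ctrl replicate 1 the log2 fold change of Ddit3 was 0.95, under the limit. The metallothionein gene Mt1, which encodes a zinc-binding protein, measured 252 and 241 FPKM in oKO L2C, against 1624 and 1734 FPKM in Ctrl L2C (log2 fold change -2.76 ± 0.43, limma adjusted p = 2.92e-05).

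The study names 13 major ZGA genes that were lower and 7 minor ZGA genes that were higher in embryos without TDP-43. It chose them on these libraries and on the Trim-away libraries described below. Their direction in either experiment is therefore no independent evidence, and their values are a description. All 13 and all 7 were called in the named direction under both scalings. Nt5c, which encodes a nucleotidase (chromosome 11, 115351734 to 115353176, mm9), measured 0.144 and 0.156 FPKM in oKO L2C, against 12.6 and 10.6 FPKM in Ctrl L2C. Its mean was 77.3-fold lower in oKO, or 40.9-fold lower after scaling. These ratios rest on oKO values near the floor, and the fitted log2 fold change was -3.45 ± 0.34, and -3.45 after scaling. Gja1, the gap junction gene for connexin 43, measured 2.64 and 1.37 FPKM in oKO L2C, against 13.8 and 12.1 FPKM in Ctrl L2C. Itgb5, an integrin gene, measured 0.681 and 0.451 FPKM in oKO L2C, against 5.23 and 5.27 FPKM in Ctrl L2C. Lst1 had the smallest ratio of the 13, with 13.97 and 3.30 FPKM in oKO L2C against 33.6 and 41.0 FPKM in Ctrl L2C. The oKO libraries differed from each other here by more than in the other 12, except Surf2 (3.46 and 0.795 FPKM in oKO L2C, 22.1 and 34.6 FPKM in Ctrl L2C).

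The promoter of 1 gene from each of 3 classes is shown, to let the letters searched for be seen in place: Nt5c, a major ZGA gene that was lower, Tcl1, an oocyte gene that was higher, and Zscan4c, a 2-cell gene that was higher. Each runs from 250 bases before to 50 bases after the start of the gene in RefSeq, build GRCm38.p6, on the strand of the gene. Positions are chr11:115491765-115492064 (minus strand) for Nt5c, chr12:105222688-105222987 (minus strand) for Tcl1 and chr7:11005495-11005794 (plus strand) for Zscan4c. Capitals mark matches, on either strand, to GGGCGG (the GC box), TATAAA (the TATA box), CCAAT (the CCAAT box) or GGATTA (letters bound by Otx-type homeodomain proteins).
Nt5c: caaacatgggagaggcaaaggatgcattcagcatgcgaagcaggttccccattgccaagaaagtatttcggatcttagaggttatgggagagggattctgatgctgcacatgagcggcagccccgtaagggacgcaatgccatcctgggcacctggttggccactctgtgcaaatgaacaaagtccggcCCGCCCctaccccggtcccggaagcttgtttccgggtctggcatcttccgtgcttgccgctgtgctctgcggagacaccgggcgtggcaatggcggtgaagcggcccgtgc
Tcl1: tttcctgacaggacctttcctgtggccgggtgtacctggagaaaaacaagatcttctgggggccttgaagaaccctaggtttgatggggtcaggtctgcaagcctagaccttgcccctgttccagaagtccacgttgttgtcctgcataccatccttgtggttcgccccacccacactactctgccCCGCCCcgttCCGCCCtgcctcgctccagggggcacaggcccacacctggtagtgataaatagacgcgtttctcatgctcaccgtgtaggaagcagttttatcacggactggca
Zscan4c: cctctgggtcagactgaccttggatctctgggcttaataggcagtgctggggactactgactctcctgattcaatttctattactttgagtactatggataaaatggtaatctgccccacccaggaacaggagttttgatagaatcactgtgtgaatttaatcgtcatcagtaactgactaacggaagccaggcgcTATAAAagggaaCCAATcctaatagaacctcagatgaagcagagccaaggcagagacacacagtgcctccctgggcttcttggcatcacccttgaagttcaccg
Nt5c held 1 GC box and 18 CG pairs, Tcl1 held 2 GC boxes and 11 CG pairs, and Zscan4c held 1 TATA box, 1 CCAAT box and 4 CG pairs. A match is not a binding site. Of the 1283 genes lower under both scalings 1028 (80.1%) had a promoter in the table, as had 6216 of the 7760 genes tested. GGGCGG was in 62.3% of promoters of these lower genes, in 63.4% of those of all genes tested and in 35.9% of the 27025 promoters of the table. TATAAA was in 7.98%, 7.96% and 14.2% of the same 3 sets, CCAAT in 38.0%, 41.1% and 37.9%, and GGATTA in 6.52%, 6.11% and 7.16%. Promoters of the lower genes thus held these letters about as often as those of all genes tested. Of the 524 higher genes 412 (78.6%) had a promoter in the table, less than the 80% required, so their shares are a description only. GGGCGG was in 35.0% of these 412 promoters, TATAAA in 17.7%, CCAAT in 46.6% and GGATTA in 13.8%. What these differences from all genes tested rest on was not tested.

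Genes that were lower in injection-control L2C than in control E2C were often higher in oKO L2C. Genes that were higher there were often lower in oKO L2C. Genes were classed by the change from control E2C to the Trim-away injection controls at L2C (by title), which share no library with the 4 L2C libraries tested. The genotype labels of these injection controls name the opposite group, so the classes hold only if the titles are right. The injection controls were injected as 1-cell embryos and then cultured, and the E2C were not injected. Stage, injection, culture and collection therefore cannot be told apart in this change. This split was chosen after its values were seen. Of 780 tested genes that fell at least 3-fold, 236 (30.3%) were higher in oKO L2C and 10 (1.28%) were lower under both scalings, with a median log2 fold change of 0.47 as deposited and 1.27 after scaling. Of 1803 tested genes that increased at least 3-fold, 13 (0.721%) were higher and 684 (37.9%) lower under both scalings, with a median of -1.53 as deposited and -0.78 after scaling. Of 2067 tested genes in between, 116 were higher and 186 lower (median -0.75, and 0.05 after scaling). Across genes, which are not independent, the Pearson correlation of the 2 changes was -0.61 and the Spearman -0.60 as deposited, and both were -0.59 after scaling.

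**Figure D4:**
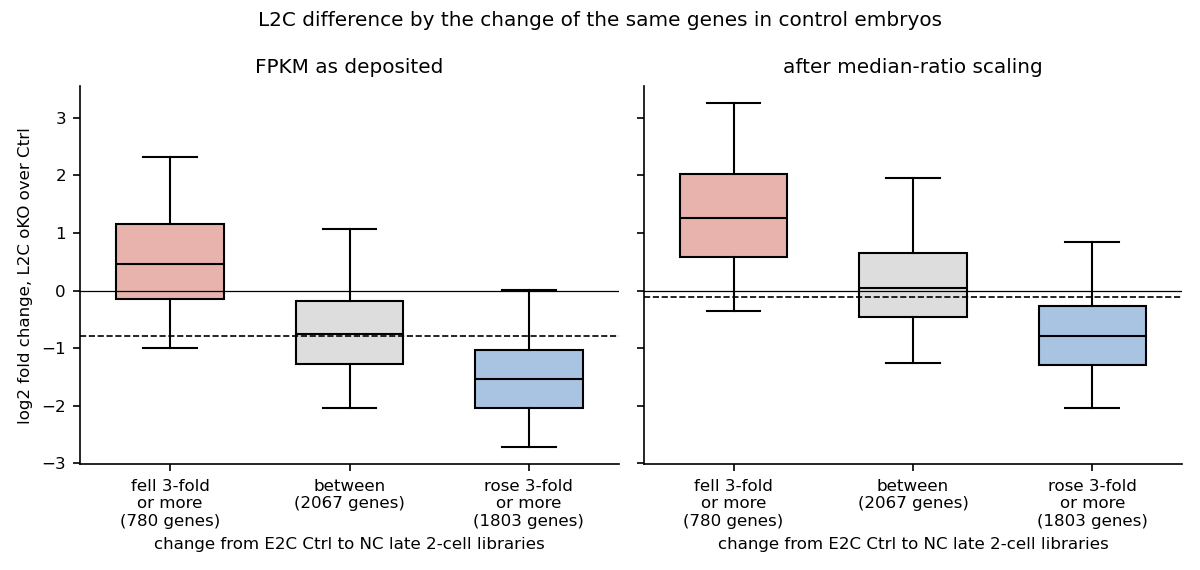
Log2 fold change of oKO over Ctrl L2C by the change in control embryos from E2C to the injection-control L2C (by title), which are other libraries. Boxes give median and quartiles, whiskers the 5th and 95th percentiles, and the dashed line the median of all genes tested. Genes that fell at least 3-fold had a median of 0.47 as deposited and 1.27 after scaling, and genes that increased at least 3-fold a median of -1.53 and -0.78.

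Maternal, minor ZGA and major ZGA genes were then described apart. These classes were built with the thresholds of the study from control MII oocytes, control 1-cell embryos, control E2C and the injection controls, none of them an L2C library tested here. Major ZGA genes were below 5 FPKM in MII oocytes and then over 5 FPKM and at least 3-fold higher by L2C, or rose over 5-fold to such a level. Of 1135 tested, 450 (39.6%) were lower and 21 (1.85%) higher under both scalings, with a median log2 fold change of -1.51 as deposited and -0.79 after scaling. Minor ZGA genes increased by the 1-cell embryo or E2C. Of 432 tested, 82 were lower and 87 higher, so the class was split. The calls in this class differed with the change of the genes from control E2C to the injection controls. Of 80 minor ZGA genes that then fell at least 3-fold, 47 were higher and none lower under both scalings (median 1.23, and 2.06 after scaling). Of the other 352, 40 (11.4%) were higher and 82 (23.3%) lower (median -0.86, and -0.15 after scaling). Maternal genes, which had more than 5 FPKM in MII oocytes and were lower by 3-fold or more in the L2C injection controls, were the class most moved by the scaling. Of 1645 tested, 225 were higher and 242 lower as deposited (median -0.13), and 578 were higher and 50 lower after scaling (median 0.61). Under both scalings 225 (13.7%) were higher and 50 (3.04%) lower, where 6.75% and 16.5% of all genes tested were. The median of maternal genes lay above that of all genes tested (-0.79 as deposited and -0.11 after scaling) on both scales, but its sign depended on the scale. In the gene lists of the study, of 57 minor ZGA genes tested 39 were higher and 4 lower under both scalings (median 2.01, and 2.95 after scaling). Of its 950 major ZGA genes tested, 571 were lower as deposited and 260 under both scalings, and 30 were higher. According to its methods, the study defined these lists from an earlier RNA-seq reference of mouse oocytes and embryos. The study compared the same L2C libraries, so the direction here is not independent of its own result.

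Early 2-cell embryos of the same cross, taken 36 h after HCG, had another pattern. In E2C, 203 of 6657 genes tested (3.05%) were higher and 475 (7.14%) lower in oKO as deposited, and 303 (4.55%) higher and 453 (6.8%) lower after scaling. Of the 524 genes higher in L2C, 453 were tested in E2C, where 33 were higher and 58 lower as deposited, and 50 higher and 61 lower after scaling, with a median log2 fold change of -0.12 and 0.0073. Of the 1283 lower in L2C, 753 were tested in E2C, where 36 were higher and 104 lower as deposited, and 51 higher and 98 lower after scaling (median -0.23 and -0.13). Across 5508 genes the effects at the 2 stages had a Pearson r of 0.07 and a Spearman rho of 0.10 as deposited, and 0.06 and 0.09 after scaling. The difference of the effects was tested in the same model, L2C effect minus E2C effect, over 7836 genes. It was positive for 635 (8.1%) and negative for 2253 (28.8%) as deposited, and positive for 1320 (16.8%) and negative for 918 (11.7%) after scaling.

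Many of the burst genes were lower in oKO at E2C and higher at L2C. Of 32 tested at E2C, 20 were lower and none was higher under both scalings (median log2 fold change -1.44 as deposited and -1.49 after scaling). The difference of the effects was positive for 29 of 33 as deposited and for all 33 after scaling. Gm6763 was among those not called at E2C (log2 fold change -0.94, limma adjusted p = 0.416). Zscan4c measured 94.9 and 326 FPKM in oKO E2C, against 627 and 516 FPKM in Ctrl E2C, so that both oKO libraries were lower at E2C and both were higher at L2C. The difference of the effects was 5.11 ± 0.53 on the log2 scale (limma adjusted p = 1.08e-06), and 5.92 after scaling. Gm428 measured 7.38 and 31.6 FPKM in oKO E2C, against 82.0 and 80.6 FPKM in Ctrl E2C, and its difference was 6.25, and 7.09 after scaling. The oKO libraries of E2C differed from each other in these genes by more than 3-fold. Tcl1, already present in the oocyte, measured 777 and 1649 FPKM in oKO E2C, against 1250 and 1514 FPKM in Ctrl E2C, where the groups overlapped, and its difference was 3.23 ± 0.41 (limma adjusted p = 1.06e-05), and 4.01 after scaling. Mt1 measured 696 and 567 FPKM in oKO E2C, against 38.0 and 26.4 FPKM in Ctrl E2C, the reverse of its direction in L2C, and its difference of -7.03 ± 0.66, or -6.26 after scaling, was the most negative among the genes named. Uqcrb measured 321 and 152 FPKM in oKO E2C, against 96.6 and 45.4 FPKM in Ctrl E2C, and its difference was -6.06 ± 0.49 (limma adjusted p = 1.09e-07), and -5.35 after scaling. Crxos, a homeobox gene of the 2-cell embryo, was lower at both stages. Crxos measured 436 and 287 FPKM in oKO L2C, against 1444 and 1242 FPKM in Ctrl L2C, and 49.3 and 32.0 FPKM in oKO E2C, against 376 and 378 FPKM in Ctrl E2C.

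TDP-43 protein was also removed at the 1-cell stage by Trim-away, in which an injected antibody and Trim21 lead a protein to degradation, and these embryos were likewise collected at L2C. The titles of these libraries (KD, and NC for the injection control) and their genotype labels give opposite groups. Titles were followed. If the labels were right instead, every Trim-away effect below would change sign, as would its correlation with the oKO effect. The differences between the oKO and Trim-away effects would take other values. The gene classes above that used the injection controls would then rest on embryos from which TDP-43 was removed. Tardbp mRNA gives no check, since Trim-away acts on protein. In Trim-away L2C, 602 of 8100 genes tested (7.43%) were higher and 647 (7.99%) lower in KD as deposited, and 745 (9.2%) higher and 496 (6.12%) lower after scaling. Of the 524 genes higher in oKO L2C, 466 were tested there, where 155 were higher and 4 lower as deposited, and 180 higher and 3 lower after scaling (median log2 fold change 0.74 and 0.84). Of the 1283 lower in oKO L2C, 1202 were tested there, where 7 were higher and 341 lower as deposited, and 8 higher and 279 lower after scaling (median -0.77 and -0.70). Across 7057 genes the effects had a Pearson r of 0.62 and a Spearman rho of 0.63 as deposited, and both were 0.61 after scaling, and the 2 experiments share no library. The share of fragments in listed genes was also lower in KD, at 41.0% and 44.7% in the libraries titled KD against 56.5% and 53.5% in those titled NC.

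Zscan4c measured 163 and 148 FPKM in KD L2C, against 24.002 and 24.2 FPKM in NC L2C. The effect in oKO L2C minus that in KD was 0.78 ± 0.53 for Zscan4c as deposited (limma adjusted p = 0.254), and 1.63 after scaling (limma adjusted p = 0.0395), so that the call of this difference depended on the scale. Tcl1 measured 972 and 821 FPKM in KD L2C, against 256 and 359 FPKM in NC L2C, and its increase was larger in oKO, with a difference of 1.39 ± 0.41 (limma adjusted p = 0.0171), and 2.21 after scaling (limma adjusted p = 0.0017). Rpl30 measured 193 and 269 FPKM in KD L2C, against 462 and 456 FPKM in NC L2C, and was lowered further in oKO (difference -2.49 ± 0.38, limma adjusted p = 0.000266, and -1.68 after scaling, limma adjusted p = 0.0168). Over 8152 genes the difference was positive for 240 (2.94%) and negative for 1914 (23.5%) as deposited, and positive for 673 (8.26%) and negative for 415 (5.09%) after scaling.

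Some genes moved in oKO L2C without moving the same way in KD. Uqcrb measured 74.8 and 91.6 FPKM in KD L2C, against 101 and 66.4 FPKM in NC L2C, where the groups overlapped, and its difference was -4.35 ± 0.48 (limma adjusted p = 2.26e-05), and -3.60 after scaling. Gdf9 measured 18.1 and 13.4 FPKM in KD L2C, against 19.001 and 27.0 FPKM in NC L2C, and its difference was 2.37 ± 0.40 (limma adjusted p = 0.000466), and 3.20 after scaling. H1foo measured 7.66 and 12.3 FPKM in KD L2C, against 12.7 and 22.3 FPKM in NC L2C, and its difference was 3.796 ± 0.72 (limma adjusted p = 0.00129), and 4.65 after scaling. Mt1 measured 2292 and 2339 FPKM in KD L2C, against 2627 and 2651 FPKM in NC L2C. Its difference was -2.57 ± 0.65 (limma adjusted p = 0.0076), and -1.75 after scaling (limma adjusted p = 0.102). Nt5c was lower in both experiments, with 1.18 and 3.94 FPKM in KD L2C against 15.7 and 5.45 FPKM in NC L2C. The study names Nt5c, like Zscan4c, for a change in both experiments, so their direction in KD is no independent evidence.

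**Figure D5:**
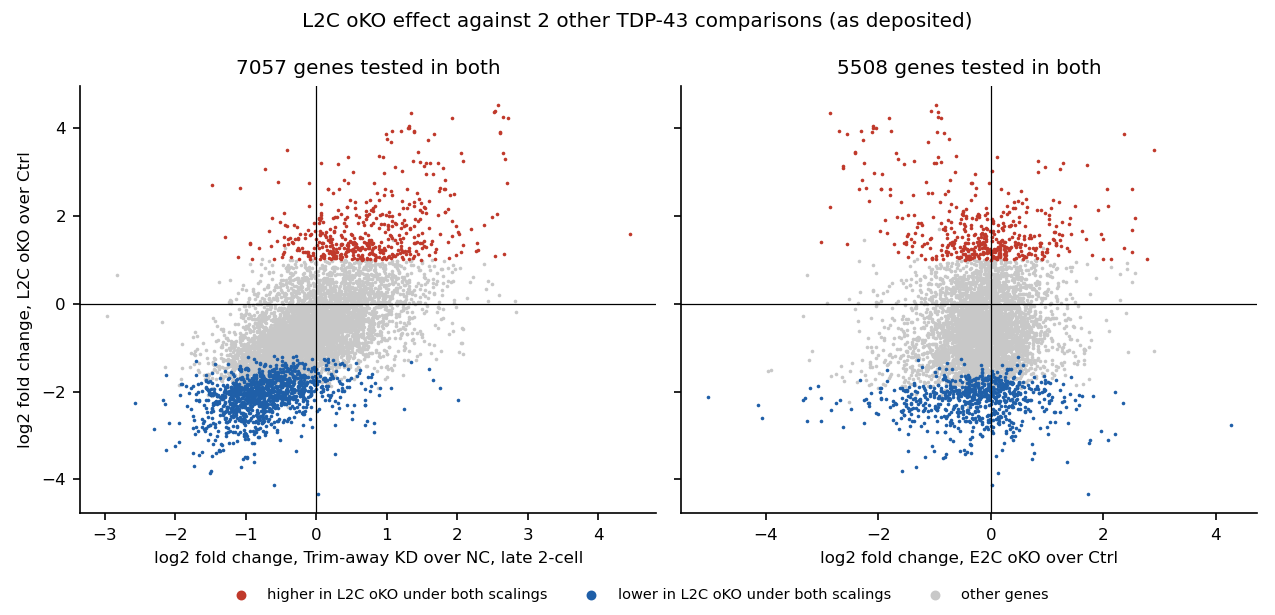
Log2 fold change in L2C (oKO over Ctrl, vertical) against that in Trim-away L2C (KD over NC by title, left) and at E2C (oKO over Ctrl, right), 1 point per gene tested in both. Genes called in L2C under both scalings are red (higher) or blue (lower), and r across all points was 0.62 with Trim-away and 0.07 with E2C.

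Called genes were more frequent among short transcripts. Of the genes tested, 7471 (96.3%) were found in the mm9 annotation and split into 4 equal parts by the length of the longest transcript. In the part of shortest transcripts (up to 1608 bases) 14.1% were higher and 23.7% lower under both scalings. In the part of longest transcripts (from 4066 bases) 1.45% were higher and 10.0% lower. By gene span, 21.3% were lower among genes up to 8131 bases and 7.98% among those from 46165 bases. Median log2 fold changes differed little between the parts by transcript length, from -0.84 to -0.76 as deposited, so that short and long genes differed in the share of large changes more than in the typical change. Transcript length and gene group go together, since the genes for ribosomal and respiratory proteins are short, and neither was tested without the other.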

How the data were processed

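The 4 L2C libraries were read with the other 20 RNA-seq libraries of the series (24 in all, 12 groups of 2). The 16 Stacc-seq samples were not used here. Expression is in FPKM, deposited by the authors as 1 table of all genes. According to the submitters' processing notes and the methods of the study, reads were trimmed with Trim Galore 0.6.6 (Cutadapt), mapped to mm9 with HISAT2 2.2.1 and assigned to RefSeq genes with StringTie 2.1.2. FPKM does not give the number of reads, so the depth is unknown and no counting interval can be given. Of 24085 names listed, 2 had no values and 27 had been turned into dates, and 24056 were used.

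Genes averaging 1 FPKM or more in the libraries of a comparison entered limma 3.58.1 (R 4.3.3) as log2(FPKM + 1), in 1 model of 12 group means with 12 residual degrees of freedom, a variance trend, robust moderation and 1 weight per collection. Fold changes of low genes are understated on this scale. The same fit was run on values divided by median-ratio size factors. P-values were adjusted by Benjamini-Hochberg over all genes tested, and called genes passed both an adjusted p of 0.05 and a 2-fold change. Tests of the difference between 2 effects used contrasts of the same model. The code was tested on simulated data. With 2 libraries per group an exact permutation test of 1 gene could not give a two-sided p below 0.333, so none was used. Nothing in the sources says that the libraries came from separate sets of animals, so p-values measure the spread between libraries only. Same-numbered oKO and Ctrl libraries did not deviate together (r = -0.008).

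Named genes are those the study names, the 12 largest increases and decreases called under both scalings at a mean of at least 5 FPKM without overlap, the 8 most abundant called genes in each direction, up to 4 called members per list (or its 2 most abundant), and the 5 largest differences in each direction between effects. The gene lists overlap and, like the genes and tests, were chosen with earlier results of these data known. Some genes the rule picks are summarised in counts only. Coordinates are those of the mm9 gene annotation (GENCODE), and promoters those of RefSeq (GRCm38.p6). Alternatives were pseudocounts of 0.1 and 5, a limit of 5 FPKM or none, quantile normalization, no weights, only the libraries compared, a replicate block, other thresholds and leaving out each L2C library. Figures were drawn with matplotlib 3.10.9 in Python 3.11.15, with pandas 2.3.3 and numpy 2.4.6.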

Additional observations from a re-analysis of the deposited data

Results flagged for a closer look

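The effect of maternal TDP-43 loss differed between L2C and E2C, by the test of the difference itself (L2C effect minus E2C effect, log2 scale, values as deposited), in 635 genes with a positive and 2253 with a negative difference. The largest positive ones were Gm11758 (7.20), Gm11757 (6.63), Gm13871 (6.44), Gm428 (6.25) and LOC101055863 (6.16). Gm11758 measured 145 and 64.8 FPKM in oKO L2C, against 3.46 and 4.31 FPKM in Ctrl L2C, and 4.66 and 49.9 FPKM in oKO E2C, against 121 and 125 FPKM in Ctrl E2C. The largest negative ones were Mt1 (-7.03), Uqcrb (-6.06), Eif3m (-5.18), Mtx2 (-5.18), which encodes a protein of the outer mitochondrial membrane, and Cox17 (-4.95). Eif3m measured 18.2 and 13.2 FPKM in oKO E2C, against 3.00 and 2.81 FPKM in Ctrl E2C, so that it was higher in oKO at E2C and lower at L2C.

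The oKO effect in L2C differed from that of Trim-away, with groups by title, in 240 genes with a positive and 1914 with a negative difference. The largest positive ones were Gm813 (3.91), H1foo (3.796), Gm3604 (3.72), Sprr2e (3.32) and Gm11758 (2.99). Gm3604 was higher in oKO L2C (33.0 and 32.9 FPKM, against 3.58 and 5.50 FPKM in Ctrl L2C) and lower in KD (32.3 and 25.7 FPKM, against 57.9 and 66.7 FPKM in NC). The largest negative ones were Uqcrb (-4.35), Iqcf5 (-4.20), Tex101 (-3.72), Rtn4 (-3.69) and 1300002E11Rik (-3.64). Tex101, a cell surface protein gene of germ cells, measured 0.714 and 2.28 FPKM in oKO L2C, against 16.9 and 16.8 FPKM in Ctrl L2C, and 15.5 and 17.8 FPKM in KD, against 9.43 and 8.64 FPKM in NC. Stage, and the way and time of TDP-43 loss, each differ between whole collections of libraries, so that their part in these differences and that of the collection cannot be told apart.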

How the results depend on the processing

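Limits: each group has 2 pooled libraries of unknown depth, and the choice of scale decides most counts. In the order higher, lower in oKO L2C (524, 3151), positive, negative difference from E2C (635, 2253) and positive, negative difference from Trim-away (240, 1914), genes called were 1277, 1283, 1320, 918, 673 and 415 after median-ratio scaling, 1298, 1532, 1213, 1187, 704 and 602 after quantile normalization, 226, 1497, 327, 1349, 133 and 790 with a pseudocount of 5, and 297, 1983, 400, 1222, 155 and 1215 with a limit of 5 FPKM. With the limit set on scaled values, an alternative added after seeing the data, they were 1551, 1298, 1429, 941, 694 and 414. Without the 2-fold minimum 814 genes were higher in oKO L2C. At an adjusted p of 0.01 the difference from E2C was positive in 417 genes and that from Trim-away positive in 124 and negative in 1013. With no limit on expression the difference from Trim-away was positive in 144 and negative in 1170. The lower major ZGA genes of the study (571) numbered 301 with a pseudocount of 5, 367 with a limit of 5 FPKM, 260 after scaling, 304 after quantile normalization and 262 with the limit on scaled values. Its 39 higher minor ZGA genes stayed within 1.5 times that count throughout.

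Leaving out each L2C library in turn gave 428 to 601 higher and 2878 to 3249 lower genes, 500 to 717 and 1655 to 2333 for the difference from E2C, 39 to 41 minor and 518 to 619 major ZGA genes. The difference from Trim-away rested more on single libraries, with 152 to 263 positive (fewest without Ctrl replicate 1) and 1083 to 1984 negative (1176 without Ctrl replicate 1, 1083 without Ctrl replicate 2). With the replicate number as a block, 520 genes were higher and 3151 lower, the differences were 644 and 2234 from E2C and 209 and 1594 from Trim-away, and the ZGA counts were 39 and 571. The numbers did not pair the libraries. Of 203 named genes tested, 201 were called. Under 1 or more alternatives 41 lost their call, 13 of them on leaving out 1 library, and none changed direction. Snhg3 lost its call without oKO replicate 1, Ctrl replicate 1 or Ctrl replicate 2 (limma adjusted p of 0.0973 to 0.207), and Mt2 without either Ctrl replicate (limma adjusted p of 0.0968 and 0.131).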
